A study of Rattus norvegicus with 21 samples.

Results

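Sulfation and glucuronidation enzymes of the rat liver are described here through 8 genes: Sult2a2, Sult2a6, Sult1a1, Sult1b1, Sult1e1, Papss2, Ugt2b1 and Ugdh. They were chosen by name, with earlier results of these data known. The probe sets whose platform gene symbol is exactly one of these were taken, which gave 9 of the 31099 on the array. Papss2 has 2 probe sets (a brighter and a dimmer one, of which the brighter stands for the gene in counts) and each other gene has 1. The data are liver expression arrays of 21 male rats, 1 array per animal and 3 animals per group. In the PBO study, 12 Sprague-Dawley rats received piperonyl butoxide, an insecticide synergist, by mouth for 7 days, at 0 (the vehicle, methyl cellulose), 500, 1000 or 1500 mg/kg. In the DAM study, 9 Fischer344 rats ate a basal diet or a diet with dammar resin, a plant resin, for 28 days, at 0, 800 or 2000 mg/kg (2% or 5% of the feed at the dosed levels). Strain, route, duration, dose and tissue storage differ between the studies, so their parts in any difference between PBO and DAM cannot be told apart. The labels call the replicates biological and give no age.

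Sulfation and glucuronidation are the main conjugation reactions by which hepatocytes make lipophilic compounds water-soluble. Cytosolic sulfotransferases (SULTs) move a sulfonate group from the donor PAPS, which PAPS synthases such as Papss2 make from sulfate and ATP. UDP-glucuronosyltransferases (UGTs) of the endoplasmic reticulum use UDP-glucuronic acid, which Ugdh makes by oxidising UDP-glucose. SULT2A enzymes act on hydroxysteroids and bile acids, SULT1A1 on small phenols, SULT1B1 on phenols and thyroid hormones and SULT1E1 on oestrogens. Ugt2b1 belongs to the UGT2B family, which acts on steroids and many drugs. Several of these genes are known targets of liver transcription factors that respond to xenobiotics. These are the nuclear receptors CAR and PXR, the aryl hydrocarbon receptor and NRF2.

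The promoters of the Sult2a pair are shown because Sult2a2 and Sult2a6 had the largest changes, and the Ugdh promoter because it held 2 of the 4 motifs searched. Each window runs from 250 bases before to 50 bases after the start used for the gene, from RefSeq on GRCr8. It is written 5′ to 3′ on the gene's own strand. For Ugdh the gene table begins the gene at 43202480, upstream of the start used for the window. Sult2a2 lies at chr1:85104483-85104782 on the minus strand, Sult2a6 at chr1:84097759-84098058 on the minus strand and Ugdh at chr14:43202268-43202567 on the plus strand. Capitals mark motif matches.
Sult2a2: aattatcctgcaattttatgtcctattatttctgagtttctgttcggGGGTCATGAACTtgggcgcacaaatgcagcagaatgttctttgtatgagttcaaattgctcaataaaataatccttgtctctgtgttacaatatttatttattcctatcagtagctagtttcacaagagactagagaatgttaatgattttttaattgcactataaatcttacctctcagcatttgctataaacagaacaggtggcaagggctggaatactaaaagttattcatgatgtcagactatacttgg
Sult2a6: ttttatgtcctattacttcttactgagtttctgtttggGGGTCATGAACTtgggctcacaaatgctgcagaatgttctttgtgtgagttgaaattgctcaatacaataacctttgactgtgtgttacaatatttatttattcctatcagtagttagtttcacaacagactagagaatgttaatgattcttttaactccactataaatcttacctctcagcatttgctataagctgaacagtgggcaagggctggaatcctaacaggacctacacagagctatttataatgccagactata
Ugdh: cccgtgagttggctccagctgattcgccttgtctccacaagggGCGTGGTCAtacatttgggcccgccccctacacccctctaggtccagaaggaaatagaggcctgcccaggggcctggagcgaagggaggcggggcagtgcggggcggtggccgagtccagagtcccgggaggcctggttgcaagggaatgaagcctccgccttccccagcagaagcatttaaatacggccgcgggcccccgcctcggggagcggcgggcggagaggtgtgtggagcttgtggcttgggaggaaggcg

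In the Sult2a windows the capitals mark GGGTCATGAACT, an inverted repeat without spacer that is known from rat Sult2a promoters as a nuclear receptor site. Its first base lay 203 bases before the start of Sult2a2 and 212 before that of Sult2a6. Over all 33469 RefSeq promoter windows of the same length, searched on both strands, 8 (0.0239%) held it, among them Sult2a1. The letters were taken from this gene family, so their presence there is a description only. The 2 windows were alike well beyond the repeat: 257 of 282 aligned bases (91.1%) were identical, against 47.8% to 68.0% for the other pairs of the 8 genes. In the Ugdh window the capitals mark GCGTG, the core of the xenobiotic response element read by the aryl hydrocarbon receptor. This core overlaps TGACNNNGC, the core of the antioxidant response element read by NRF2, on the other strand. Both begin 207 bases before the start used for the window. GCGTG was present in 29.7% of all windows and TGACNNNGC in 12.1%. The nuclear receptor half-site AGGTCA was present in 16.2% of windows and, of the 8 genes, in that of Sult1e1. The Sult1e1 window (20701230 to 20701529 on chromosome 14) was matched by symbol and lies inside the gene as listed, which begins at 20700444. The half-site, the GCGTG core and the TGACNNNGC core each matched 1 of the 8 genes.

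Signals are MAS5 values on a linear scale, and a change is a difference of means on log2(signal + 16), given with the standard error of a limma fit across 18625 probe sets, 3 animals per group. A gene is called where the Benjamini-Hochberg adjusted p was under 0.05. All 9 probe sets passed the filter on low values in the fits of each study and of the difference, Sult2a2 through the groups in which it was high: with only the PBO 0 and 500 mg/kg arrays it did not pass. Groups of 1 study are compared with the same 3 control animals, so the changes at different doses are not independent. In bulk liver RNA, fewer cells of a type and less RNA per cell cannot be told apart. Of 10 hepatocyte markers 9 were on the array, and their summed signal ranged from 308890 to 388930 in PBO controls, from 264050 to 330500 at PBO 1500 mg/kg, from 238500 to 292310 in DAM controls and from 269650 to 323410 at DAM 2000 mg/kg. Macrophage markers (8 of 9 on the array) summed to 16938 to 19342 in PBO controls and 2989 to 13760 at PBO 1500 mg/kg, and cholangiocyte markers (5 of 6) to 1160 to 1499 and 3546 to 4324. Erythroid markers (3 of 6) summed to 21596 to 22811 and 4350 to 9993 in the same groups, T and NK cell markers (6 of 6) to 416 to 540 and 170 to 210 and endothelial markers (5 of 6) to 9137 to 9837 and 6597 to 7730. At PBO 1500 mg/kg 3 of the 9 hepatocyte markers, 3 of the 8 macrophage markers and 2 of the 3 erythroid markers were called lower (background 17.3% of all probe sets tested). There 1 of 5 endothelial markers and the 1 T and NK cell marker tested were also lower, and 1 of 4 cholangiocyte markers tested was higher. Of 7 stellate cell and fibroblast markers 1 was higher and 2 lower, and the 1 B cell marker tested was not called. In the DAM study the macrophage sums were 16302 to 17341 in controls and 12166 to 15115 at 2000 mg/kg, and the cholangiocyte sums 708 to 950 and 1640 to 1796. At DAM 2000 mg/kg (background 12.3%) 2 of 9 hepatocyte markers and 1 of 2 cholangiocyte markers tested were called higher. Called lower there were 1 of 9 hepatocyte, 1 of 8 macrophage and 2 of 7 stellate cell and fibroblast markers. The part of these shifts in the results was not tested. The array of PBO 1500 mg/kg replicate 3 stood apart, with a root mean square deviation from its group of 0.495 against at most 0.368 on any other.

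Of the 8 genes, 2 were called at PBO 500 mg/kg, both higher, where 0.478% of all probe sets tested were called. At PBO 1000 mg/kg 4 were called (3 higher, 1 lower; background 3.12%). At PBO 1500 mg/kg 7 were called (5 higher, 2 lower; background 17.3%). In the DAM study 6 were called at 800 mg/kg (5 higher, 1 lower; background 3.79%) and 7 at 2000 mg/kg (5 higher, 2 lower; background 12.3%). The genes that rose at both highest doses were Sult2a2, Sult2a6, Sult1b1, Ugt2b1 and Ugdh, and those that fell were Sult1a1 and Papss2, while Sult1e1 was called in neither. The median size of the change over the 8 genes was 1.04 log2 units at PBO 1500 mg/kg and 0.63 at DAM 2000 mg/kg, against 0.33 and 0.20 over all probe sets tested. As the 8 genes were chosen with earlier results of these data known, these counts and medians describe them and are no test of enrichment.

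**Figure D1:**
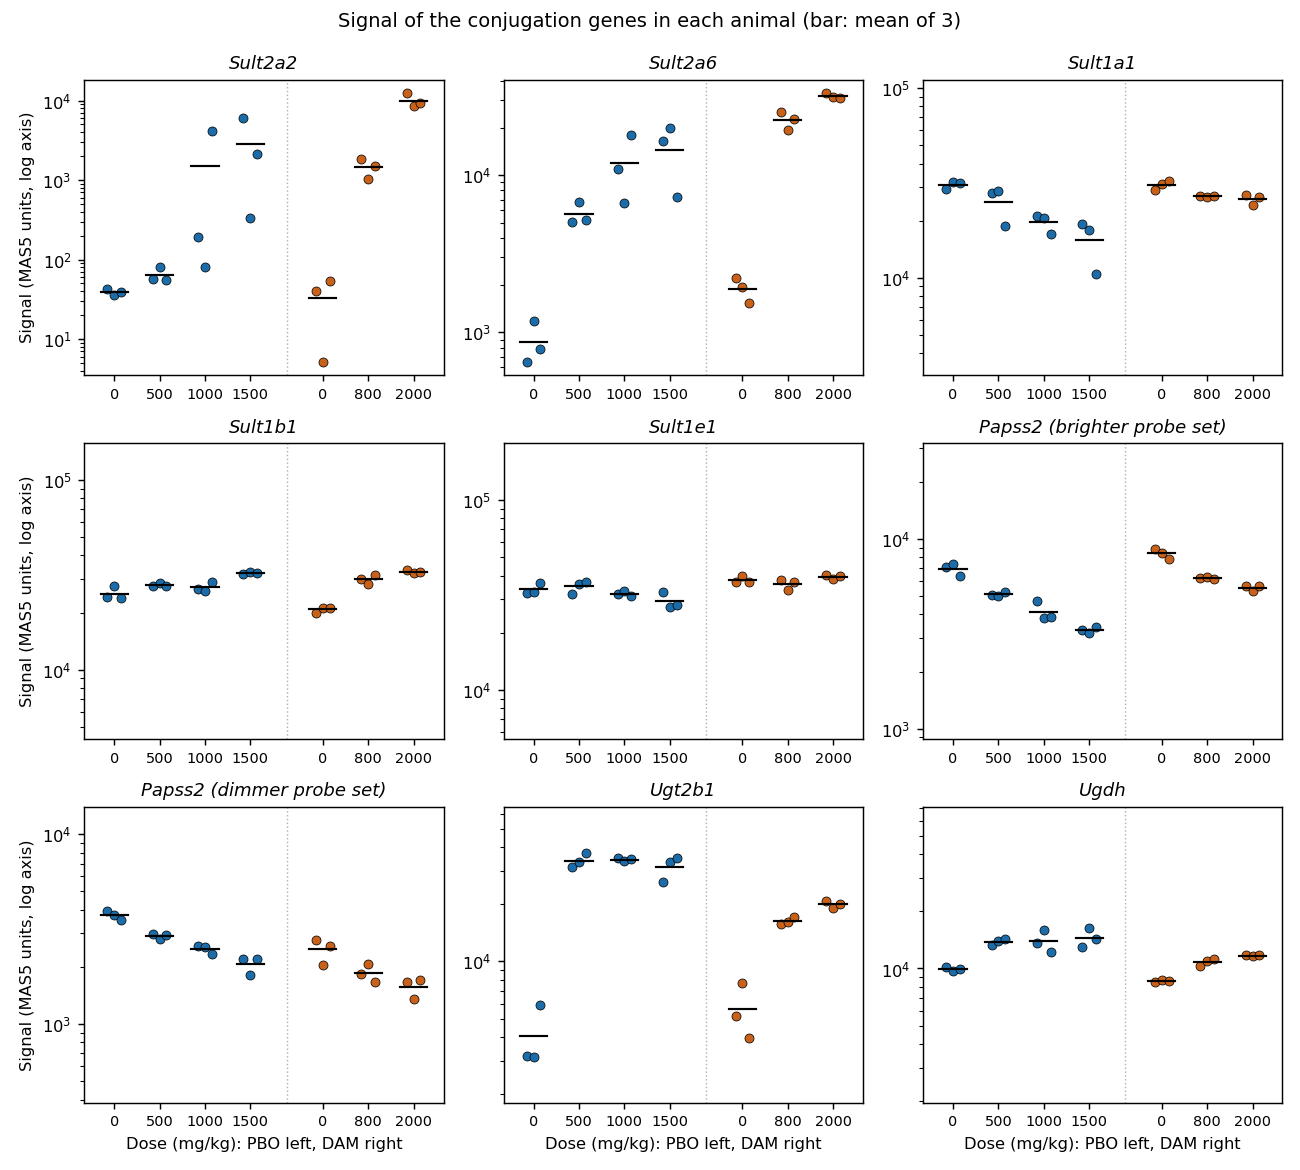
Signal (MAS5 units, log axis) of each probe set in each animal, by dose in mg/kg, with PBO groups in blue on the left and DAM groups in orange on the right; bars are means of 3 animals. Sult2a2, Sult2a6 and Ugt2b1 span the widest ranges, Papss2 falls with dose in both studies, and Sult1e1 stays between 27183 and 40275 in every animal.

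Sult2a2, a hydroxysteroid sulfotransferase known for its far higher level in female than in male rat liver, was near the bottom of the scale in undosed males. Its signal was 42.9, 35.9 and 39.4 in the 3 PBO controls and 39.9, 5.18 and 53.3 in the 3 DAM controls, where 26.4% to 30.6% and 10.6% to 40.8% of probe sets lay below it. At PBO 500 mg/kg it was 56.7, 79.6 and 55.7, all above the controls but still below the median of each array, and the change of 0.52 ± 1.16 was not called (adjusted p = 0.932). That standard error is shared by all PBO groups. The SD of the signal was 3.52 in controls and 13.5 at 500 mg/kg, against 2329 at 1000 and 2914 at 1500 mg/kg. The p-value therefore says little about the controls and the 500 mg/kg group alone. The animals at PBO 1000 mg/kg read 193, 80.8 and 4169, a spread in which 1 animal (replicate 3) had a strong signal and another (replicate 2) a signal close to the highest at 500 mg/kg.

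At PBO 1500 mg/kg the Sult2a2 signals were 6030, 330 and 2129, all above every control animal and overlapping the 1000 mg/kg group. The changes were 2.99 ± 1.16 at 1000 mg/kg (adjusted p = 0.222, not called) and 4.90 ± 1.16 at 1500 mg/kg (adjusted p = 0.0118). The dosed DAM groups were closer together than those at PBO 1000 and 1500 mg/kg. At 800 mg/kg the animals read 1865, 1040 and 1504, and at 2000 mg/kg 12382, 8437 and 9201, so the 3 DAM groups did not overlap. Sult2a2 rose by 5.06 ± 0.35 at 800 mg/kg (adjusted p = 9.2e-06) and by 7.83 ± 0.35 at 2000 mg/kg (adjusted p = 7.28e-08), the largest change of any of the 8 genes. As the control signals lay in the low part of the scale, the size of these changes depends on the value added before the log, and ranged from 6.72 to 8.69 at DAM 2000 mg/kg over the alternatives tried.

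Sult2a6, its paralog, had a clear signal in controls and rose at the lowest dose of each compound. PBO controls read 650, 1184 and 784 and DAM controls 2208, 1939 and 1541, so undosed animals of the 2 studies did not overlap. At PBO 500 mg/kg the signals were 5054, 6737 and 5196, all above the controls. They were 10967, 6668 and 18051 at 1000 mg/kg and 16404, 19885 and 7272 at 1500 mg/kg, where the groups at neighbouring doses overlapped. The changes of 2.71 ± 0.38, 3.67 ± 0.38 and 3.95 ± 0.38 were all called (adjusted p = 0.0048, 0.000191 and 3.3e-05).

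The DAM animals read 25111, 19545 and 22805 for Sult2a6 at 800 mg/kg and 33298, 31541 and 31135 at 2000 mg/kg. Both groups lay above all DAM controls and did not overlap each other. Sult2a6 rose by 3.57 ± 0.12 at 800 mg/kg (adjusted p = 1.26e-08) and by 4.08 ± 0.12 at 2000 mg/kg (adjusted p = 2.42e-09). The step between these doses was 0.52 ± 0.12 and missed the threshold (adjusted p = 0.0663), while that of Sult2a2, 2.77 ± 0.35, passed it (adjusted p = 0.00165). Whether the 2 steps differ from each other was not tested. In the dosed DAM animals 99.4% to 99.8% of probe sets lay below Sult2a6, and how far signals flatten in that range was not tested.

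**Figure D2:**
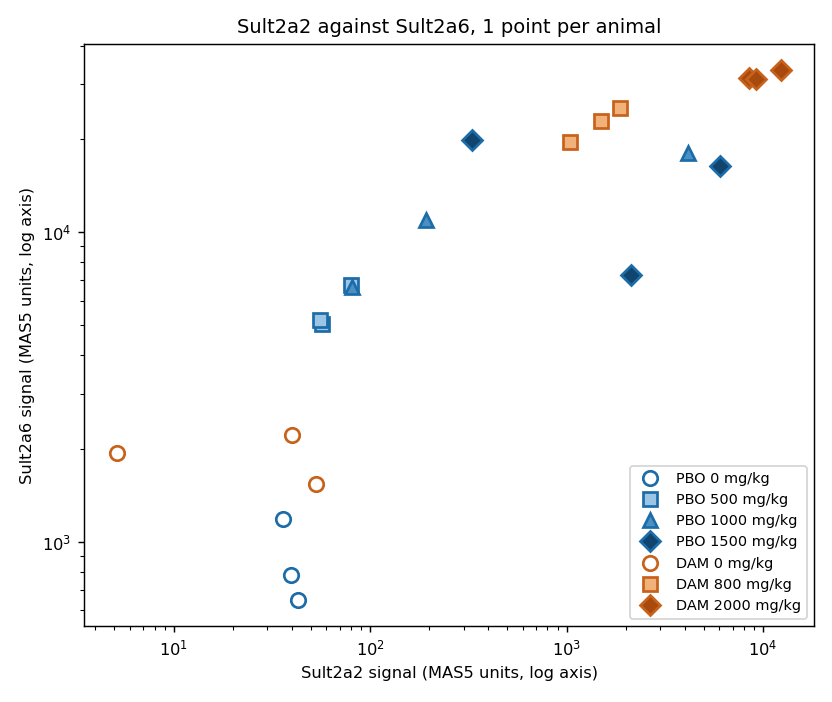
Sult2a6 signal against Sult2a2 signal (MAS5 units, both axes log), 1 point per animal, shape and colour by group. Sult2a6 reads 5054 to 6737 at PBO 500 mg/kg and Sult2a2 55.7 to 79.6, both above their controls, and both are highest at DAM 2000 mg/kg.

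Within the PBO groups the 2 genes did not rank the animals alike. At 1000 mg/kg the order was the same, with replicate 3 highest and replicate 2 lowest for both. At 1500 mg/kg replicate 2 had the lowest Sult2a2 (330) and the highest Sult2a6 (19885), and replicate 3, the array that stood apart, had the lowest Sult2a6 (7272) and a Sult2a2 signal of 2129. SULT2A transcripts are close in sequence, and how far each probe set also reads its paralogs was not tested. Another paralog, Sult2a1, whose promoter holds the same inverted repeat, read 4.48 to 62.2 in the PBO study and 10.5 to 46.1 in the DAM study over all animals, and was left out of the fits by the filter on low values; it was named here after its values were seen.

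Sult1a1, the phenol sulfotransferase, was among the brightest probe sets on the array and fell. PBO controls read 29450, 32118 and 31430. The dosed animals read 27847, 28576 and 18756 at 500 mg/kg, 21135, 20771 and 17112 at 1000 mg/kg and 19235, 17892 and 10528 at 1500 mg/kg. Each dosed group lay below the controls and overlapped the group at the next dose. The changes were -0.33 ± 0.21 and -0.66 ± 0.21 at the lower doses (adjusted p = 0.669 and 0.129, not called) and -1.01 ± 0.21 at 1500 mg/kg (adjusted p = 0.0058). Without PBO 1500 mg/kg replicate 3, which enters the spread of the whole fit, the same Sult1a1 change at 1000 mg/kg passed the threshold (adjusted p = 0.0112).

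In the DAM study the Sult1a1 drop was small. Controls read 28937, 31337 and 32220, the 800 mg/kg group 26884, 26721 and 26967 and the 2000 mg/kg group 27426, 24217 and 26524. Both dosed groups lay below the controls and overlapped each other. The change at 800 mg/kg was -0.20 ± 0.07 (adjusted p = 0.15, not called), and that at 2000 mg/kg, -0.24 ± 0.07, was called (adjusted p = 0.0337). That Sult1a1 call was lost without DAM control replicate 2 (adjusted p = 0.0735) or 3 (0.125), without DAM 2000 mg/kg replicate 2 (0.131) or 3 (0.0619), and with arrays scaled to a common median (-0.13, adjusted p = 0.436).

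Sult1b1, which sulfates phenols and thyroid hormones, rose modestly with both compounds. Its signals were 24159, 27417 and 23839 in PBO controls and 31780, 32680 and 32398 at PBO 1500 mg/kg, with no overlap. The change there was 0.36 ± 0.09 (adjusted p = 0.0135), and this call was lost without PBO control replicate 1 (adjusted p = 0.0528) or 3 (0.0573) and with only the arrays compared (0.083). The changes at 500 and 1000 mg/kg, 0.15 ± 0.09 and 0.12 ± 0.09, were not called. DAM controls read 19985, 21246 and 21170, the 800 mg/kg group 30173, 28320 and 31604 and the 2000 mg/kg group 33548, 32416 and 32637. The 3 DAM groups did not overlap, and Sult1b1 rose by 0.53 ± 0.06 (adjusted p = 0.000542) and 0.66 ± 0.06 (adjusted p = 2.78e-05), to 58.0% above the control mean at 2000 mg/kg. PBO controls lay above DAM controls, whereas the PBO 1500 and DAM 2000 mg/kg groups overlapped. The limma difference between the effects of the highest doses was not called (adjusted p = 0.11). On every array 99.4% to 99.8% of probe sets lay below Sult1b1, and how far signals flatten there was not tested.

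Sult1e1, the oestrogen sulfotransferase, was called at no dose. It was among the brightest probe sets in every animal, at 32202, 32756 and 36591 in PBO controls and 32799, 27183 and 28126 at PBO 1500 mg/kg. DAM controls read 36808, 39686 and 37161, and the 2000 mg/kg group 40275, 38309 and 39578. All 5 dosed groups overlapped their controls. The change was -0.21 at PBO 1500 mg/kg (95% interval -0.43 to 0.01) and 0.06 at DAM 2000 mg/kg (95% interval -0.09 to 0.20). On every array 99.6% to 100% of probe sets lay below it, and how far signals flatten in that range was not tested.

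On RefSeq's GRCr8 gene table Sult1e1, Sult1d1, Sult1b1 and Ugt2a1 follow one another on chromosome 14, with the Ugt2b genes, Ugt2b1 among them, beyond. The neighbours did not share one pattern: Sult1e1 was not called, Sult1b1 rose modestly and Ugt2a1 and Ugt2b1 rose by more than 1 log2 unit at both highest doses. Sult1d1, named for its place, was left out of the fits by the filter, with signals of at most 55.4.

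**Figure D3:**
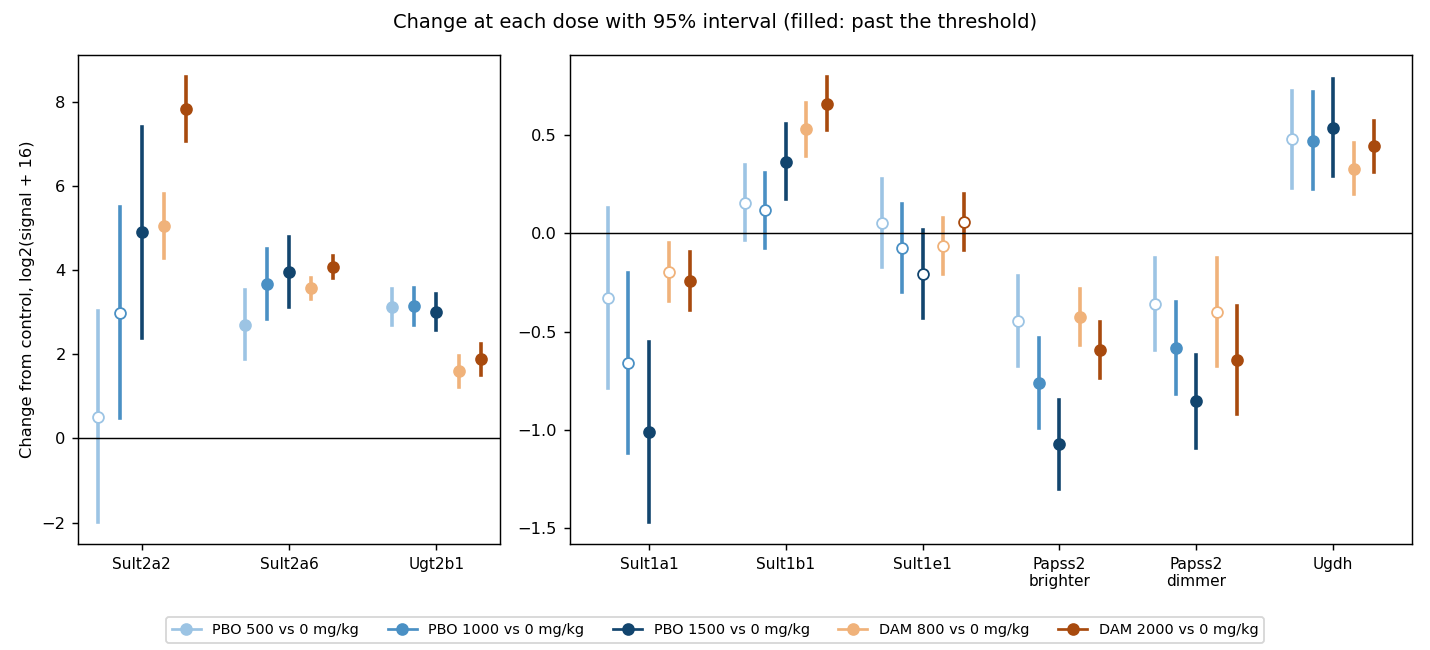
Change from the control of the same study on the log2(signal + 16) scale, with 95% intervals from the limma fit, for each probe set and dosed group; filled points passed the threshold (adjusted p under 0.05). The left panel has a wider scale than the right, and Sult2a2 at DAM 2000 mg/kg (7.83) is the largest change.

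Papss2, the PAPS synthase that is the more abundant in liver, fell with both compounds on both probe sets. On the brighter probe set the PBO controls read 7134, 7388 and 6406. Dosed animals read 5081, 5027 and 5225 at 500 mg/kg, 4684, 3823 and 3860 at 1000 mg/kg and 3300, 3186 and 3414 at 1500 mg/kg. The 4 PBO groups did not overlap and the order followed the dose. The changes were -0.45 ± 0.11 (adjusted p = 0.105, not called), -0.76 ± 0.11 (adjusted p = 0.0017) and -1.07 ± 0.11 (adjusted p = 3.57e-05). The group mean fell by 52.7% at 1500 mg/kg. Without PBO 1500 mg/kg replicate 3 in the fit, Papss2 also passed at 500 mg/kg (adjusted p = 0.03).

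DAM controls read 8816, 8464 and 7845 on the same Papss2 probe set, the 800 mg/kg group 6225, 6288 and 6151 and the 2000 mg/kg group 5639, 5300 and 5675. The 3 groups did not overlap. Papss2 fell by 0.43 ± 0.07 at 800 mg/kg (adjusted p = 0.00317; 0.0567 without the intensity trend) and 0.59 ± 0.07 at 2000 mg/kg (adjusted p = 9.18e-05) on the log2 scale. The dimmer probe set read 3515 to 3963 in PBO controls and 2056 to 2781 in DAM controls. Its changes were -0.36, -0.58 and -0.86 over the PBO doses (adjusted p = 0.248, 0.0119 and 0.000216) and -0.40 and -0.64 over the DAM doses (adjusted p = 0.117 and 0.00551). Its Papss2 call at PBO 1000 mg/kg was lost without PBO control replicate 1 (adjusted p = 0.059) or 2 (0.0542) or PBO 1000 mg/kg replicate 3 (0.0593), and it passed at DAM 800 mg/kg without DAM control replicate 2 (0.0442).

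Ugt2b1, a UDP-glucuronosyltransferase of steroids and drugs, rose steeply and was already at its highest level at the lowest PBO dose. PBO controls read 3172, 3148 and 5874. Dosed animals read 31441, 33239 and 37164 at 500 mg/kg, 35029, 33614 and 34489 at 1000 mg/kg and 26314, 33205 and 34874 at 1500 mg/kg. The dosed groups lay far above the controls and overlapped one another. Ugt2b1 rose by 3.12 ± 0.20, 3.14 ± 0.20 and 3.0 ± 0.20 (adjusted p = 3.31e-06, 1.83e-06 and 1.38e-06), means 8.35, 8.46 and 7.74 times that of the controls. The steps between PBO doses were 0.02 (95% interval -0.41 to 0.45) and -0.14 (95% interval -0.57 to 0.29).

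With DAM the Ugt2b1 rise was smaller at both doses. Controls read 5143, 7683 and 3975, the 800 mg/kg group 15807, 16216 and 17119 and the 2000 mg/kg group 20876, 19069 and 20076. The 3 groups did not overlap, and every DAM animal read below every dosed PBO animal. Ugt2b1 rose by 1.60 ± 0.17 (adjusted p = 0.000249) and 1.89 ± 0.17 (adjusted p = 1.89e-05), means 2.93 and 3.57 times that of the controls. The highest signal on any array lay between 42934 and 79258, and how far MAS5 signals flatten near that range was not tested.

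Ugdh, which makes the glucuronic acid donor, rose slightly in every dosed group. PBO controls read 10201, 9719 and 9909. Dosed animals read 13269, 13971 and 14359 at 500 mg/kg, 13547, 15884 and 12185 at 1000 mg/kg and 13010, 16255 and 14245 at 1500 mg/kg. All 9 dosed animals lay above the controls, and the dosed groups overlapped one another. The changes were 0.48 ± 0.11 (adjusted p = 0.108, not called), 0.47 ± 0.11 (adjusted p = 0.0437) and 0.54 ± 0.11 (adjusted p = 0.00628). The Ugdh call at 1000 mg/kg was lost without any one control (adjusted p = 0.105 to 0.145) and without PBO 1000 mg/kg replicate 1 (0.113) or 2 (0.164), and without PBO 1500 mg/kg replicate 3 in the fit the change at 500 mg/kg passed (0.0365).

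The DAM animals read 8532, 8646 and 8638 for Ugdh in controls, 10303, 10917 and 11235 at 800 mg/kg and 11727, 11567 and 11796 at 2000 mg/kg. The 3 groups did not overlap. Ugdh rose by 0.33 ± 0.06 (adjusted p = 0.00854) and 0.44 ± 0.06 (adjusted p = 0.000414), to 35.9% above the control mean at 2000 mg/kg. The call at 800 mg/kg was lost without DAM 800 mg/kg replicate 3 (adjusted p = 0.0521) and without the intensity trend in the fit (0.0951).

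Between neighbouring doses few steps passed. From PBO 500 to 1000 mg/kg none of the 8 genes was called by limma, with a background of 0.0107%. Of the 9 probe sets 2, those of Sult2a6 and the brighter one of Papss2, had an unadjusted p under 0.05, as had 995 of all 18625. From PBO 1000 to 1500 mg/kg none was called, with a background of 1.2%. An unadjusted p under 0.05 was found there for 3 of the 9 probe sets, that of Sult1b1 and both of Papss2, and for 3401 of all 18625. From DAM 800 to 2000 mg/kg only Sult2a2 was called, with a background of 1.11%. A linear trend over the 4 PBO doses was called for 7 of the 8 genes, 5 rising and 2 falling, with a background of 16.8%.

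Per 500 mg/kg, the trend was 1.72 ± 0.36 for Sult2a2 (adjusted p = 0.00455) and 1.28 ± 0.18 for Sult2a6 (adjusted p = 0.000311). It was -0.34 ± 0.06 for Sult1a1 and -0.35 ± 0.03 for Papss2 on its brighter probe set. Ugt2b1 also had a called trend, 0.90 ± 0.21 (adjusted p = 0.00999), although its 3 dosed groups lay at one level, so that its slope rests on the controls against the rest. The trends of Sult1b1 (0.11 ± 0.03) and Ugdh (0.16 ± 0.04) were lost when single arrays were left out, at adjusted p = 0.0721 to 0.0954 for Sult1b1 (without PBO control replicate 1 or 3 or PBO 1500 mg/kg replicate 1 or 2) and 0.0658 to 0.0806 for Ugdh (without any one control or PBO 1500 mg/kg replicate 2).

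The effects of the highest doses, 1500 mg/kg PBO for 7 days and 2000 mg/kg DAM for 28 days, were compared by the difference of their changes over all 21 arrays. Of the 8 genes, 2 were called (1 higher and 1 lower with PBO), with a background of 4.91%. Ugt2b1 rose more with PBO, by 1.12 ± 0.29 (adjusted p = 0.0323), and Papss2 on its brighter probe set changed by a further -0.48 ± 0.12 with PBO (adjusted p = 0.0257), whereas the dimmer one gave -0.21 ± 0.17 (adjusted p = 0.547). Both calls were lost when any of several single arrays was left out, at adjusted p = 0.0539 to 0.0837 for Ugt2b1 (without PBO control replicate 1 or 2, DAM control 1 or 2, or DAM 2000 mg/kg replicate 1, 2 or 3) and 0.0515 to 0.0742 for Papss2 (without PBO control replicate 1 or 2, DAM control 2 or 3, or DAM 2000 mg/kg replicate 1 or 3).

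The difference was -2.93 for Sult2a2 (95% interval -5.83 to -0.04, adjusted p = 0.25), the widest interval of the 8 genes. It was -0.13 for Sult2a6 (95% interval -1.08 to 0.83), -0.30 for Sult1b1 (-0.51 to -0.08), -0.26 for Sult1e1 (-0.52 to -0.01) and 0.10 for Ugdh (-0.17 to 0.37). None of these was called (adjusted p = 0.919, 0.11, 0.237 and 0.746). The intervals are not adjusted for the number of probe sets tested. The Sult1a1 difference of -0.77 ± 0.24 missed the threshold (adjusted p = 0.0801) and passed it without PBO 1500 mg/kg replicate 1 (0.0293) or 2 (0.0397). Ratios of 3′ to 5′ signal differed between the studies, at 2.38 to 3.16 for actin with PBO and 5.56 to 9.81 with DAM, and the part of this in the differences was not tested.

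Other genes of the pathway were taken from 5 lists, chosen with earlier results of these data known, whose counts cover the members tested. Among sulfotransferases 6 of 10 were tested, and 3 fell at PBO 1500 mg/kg (background 17.3%), while limma called none at DAM 2000 mg/kg (background 12.3%). At that DAM dose 3 of the 6 had an unadjusted p under 0.05, as had 4974 of all 18625 probe sets. Sult1c3, a cytosolic sulfotransferase, read 22353, 21294 and 23439 in PBO controls and 5861, 6250 and 2175 at 1500 mg/kg, a change of -2.37 ± 0.30 (adjusted p = 0.000213). Its fall came mostly with the last dose, as the step from 1000 to 1500 mg/kg was -2.01 ± 0.30 (adjusted p = 0.00937). That Sult1c3 call was lost without PBO 1000 mg/kg replicate 2 (0.0658) and with only the arrays compared (0.14), a setting in which no probe set was called. Sult1c2a changed by -2.03 ± 0.26 at PBO 1500 mg/kg (adjusted p = 0.000227). Both changes were larger with PBO 1500 mg/kg than with DAM 2000 mg/kg, by -2.07 ± 0.36 for Sult1c3 and -1.83 ± 0.30 for Sult1c2a (adjusted p = 0.00227 and 0.00171). Sult1c2 rose at DAM 800 mg/kg by 0.40 ± 0.10 (adjusted p = 0.0359), a call lost without DAM control replicate 1 or 2 or any one 800 mg/kg animal (0.0652 to 0.14). The same Sult1c2 was the other sulfotransferase that fell at PBO 1500 mg/kg, by 2.04 ± 0.51 (adjusted p = 0.0159), and was added outside the naming rule. That call was lost without PBO control replicate 3 (0.0543) and with only the arrays compared (0.0668). Sult1c2 read 404, 360 and 426 in PBO controls and 20.3, 118 and 189 at 1500 mg/kg. Without PBO 1500 mg/kg replicate 1, the lowest, the change was -1.31 (adjusted p = 0.0252). The Sult1c2 difference between the highest doses was -2.21 ± 0.58 (adjusted p = 0.0347) and ranged from -2.73 to -1.48 over the alternatives. It was lost without any one PBO control, DAM control or DAM 2000 mg/kg animal (0.0544 to 0.0792).

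Of the list for PAPS supply and sulfate transport, 9 of 12 genes were tested. At PBO 1500 mg/kg 1 rose and 3 fell (background 17.3%), and the counts were equal at DAM 2000 mg/kg (12.3%), while 1 fell at PBO 1000 mg/kg (3.12%) and 1 at DAM 800 mg/kg (3.79%). Slc13a4, a sodium-coupled sulfate transporter, read 2497, 2738 and 2796 in PBO controls and 615, 818 and 892 at 1500 mg/kg. It changed by -1.24 ± 0.19 at PBO 1000 mg/kg, -1.78 ± 0.19 at PBO 1500 mg/kg and -0.59 ± 0.08 at DAM 2000 mg/kg (adjusted p = 0.00352, 5.74e-05 and 0.000315). The difference between the highest doses was -1.19 ± 0.22 (adjusted p = 0.00352). The step of Slc13a4 from DAM 800 to 2000 mg/kg was -0.37 ± 0.08 (adjusted p = 0.0412) and was lost without any one 800 or 2000 mg/kg animal (0.0603 to 0.173). The sulfate and oxalate exchanger Slc26a1 had a PBO trend of -0.40 ± 0.05 per 500 mg/kg (adjusted p = 0.000185), and the tyrosylprotein sulfotransferase Tpst1 changed by -0.34 ± 0.06 and -0.51 ± 0.06 at the DAM doses (adjusted p = 0.0111 and 0.000238). The lower Tpst1 call was lost without DAM 800 mg/kg replicate 1 (0.0531). Of the 4 genes on the sulfatase list, all were tested and limma called none at any dose. An unadjusted p under 0.05 was found for 1 at PBO 1000 mg/kg and 1 at PBO 1500 mg/kg. Over all 18625 probe sets it was found for 2930 and 5858.

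Among UGTs only 5 of the 27 listed genes were tested. A probe set with that gene as its only symbol was found for 7, of which Ugt2b7 and Ugt8 were left out by the filter on low values. The probe sets of the Ugt1a genes carry several symbols and were not named. At PBO 1000 and 1500 mg/kg 2 of the 5 rose (background 3.12% and 17.3%), at DAM 800 mg/kg 1 (3.79%) and at DAM 2000 mg/kg 3 (12.3%), and none was called lower in these comparisons. Over the PBO doses 2 had a rising trend and 1, Ugt2b, a falling one (background 16.8%). Ugt2a1 read 371, 409 and 342 in PBO controls and 1532, 1421 and 963 at 1500 mg/kg. It rose by 1.49 ± 0.24 at PBO 1000 mg/kg, by 1.40 ± 0.18 at DAM 800 mg/kg and by 1.27 ± 0.18 at DAM 2000 mg/kg (adjusted p = 0.0057, 0.000833 and 0.000538), and its PBO trend was 0.59 ± 0.08 per 500 mg/kg. Ugt2b10, whose gene follows Ugt2b1 on chromosome 14, rose by 1.29 ± 0.22 at PBO 1000 mg/kg (adjusted p = 0.00736). Ugt2b, added outside the naming rule, had a trend of -2.14 ± 0.66 per 500 mg/kg (adjusted p = 0.0382). That trend was lost without any one control or 500 mg/kg animal or PBO 1500 mg/kg replicate 1 or 2 (0.0543 to 0.118). The Ugt2b changes at 500, 1000 and 1500 mg/kg, 0.02, -3.13 and -6.07, were not called. Each had a standard error of 2.13, against 0.22 for Ugt2b10, so animals of a group differed widely. Ugt2b has 2 probe sets, of which the brightest tested is given. UGT2B transcripts resemble one another, and cross-reading between the probe sets of Ugt2b1 and Ugt2b10 was not tested.

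For the supply of UDP-glucuronate and the use of glucuronate, 7 of 8 genes were tested. At each highest dose 1 rose and 2 fell (background 17.3% with PBO and 12.3% with DAM), and 1 fell at PBO 1000 mg/kg (3.12%) and 1 at DAM 800 mg/kg (3.79%). Gulo, the last enzyme of vitamin C synthesis, which draws on glucuronate, read 14675, 16100 and 16946 in PBO controls and 5784, 5712 and 4524 at 1500 mg/kg. It changed by -0.87 ± 0.12 and -1.58 ± 0.12 at PBO 1000 and 1500 mg/kg (adjusted p = 0.00159 and 3.95e-06) and by -0.43 ± 0.07 and -0.73 ± 0.07 at the DAM doses (adjusted p = 0.00556 and 3.76e-05), opposite in sign to Ugdh. The Gulo call at DAM 800 mg/kg was lost with median scaling (-0.37, adjusted p = 0.0637) and without the intensity trend (0.0715). The fall was deeper with the highest PBO dose, by -0.84 ± 0.14 (adjusted p = 0.00197). The step of Gulo from PBO 1000 to 1500 mg/kg, -0.71 ± 0.12 (adjusted p = 0.0154), was lost without PBO 1000 mg/kg replicate 2 (0.0869) or 3 (0.066). It was also lost with only the arrays compared, and held under 11 of 15 alternatives (adjusted p up to 0.156). At PBO 500 mg/kg limma called no gene of the 5 lists (background 0.478%). An unadjusted p under 0.05 was found there for 4 of 5 UGTs, 2 of 9 genes of PAPS supply and sulfate transport and 2 of 7 of glucuronate supply. Over all 18625 probe sets it was found for 1858.

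**Figure D4:**
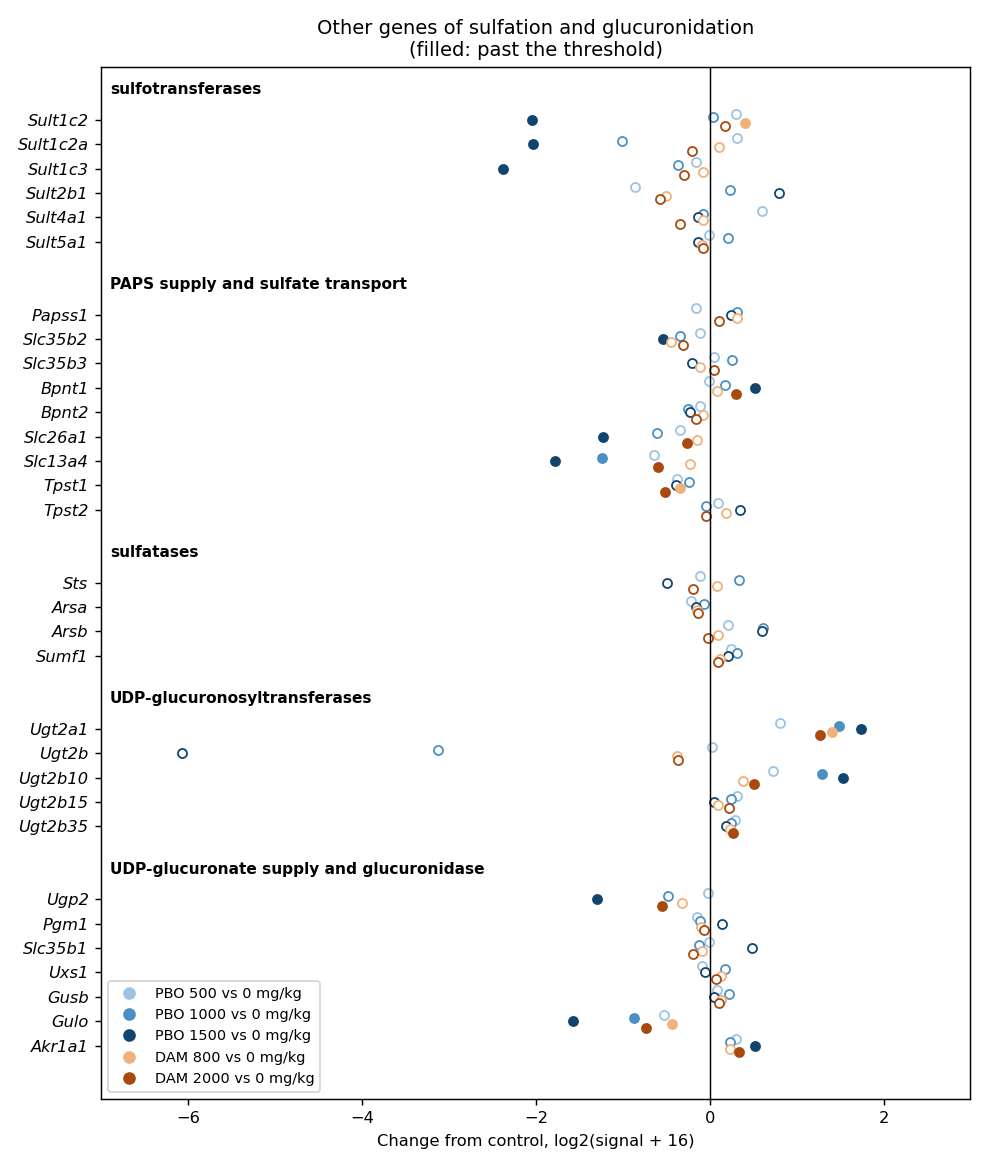
Change from the control of the same study on the log2(signal + 16) scale for the tested genes of the 5 pathway lists, 1 point per dosed group; filled points passed the threshold. The Sult1c genes move left at PBO 1500 mg/kg (Sult1c3 by -2.37), Slc13a4 and Gulo lie left of 0 in all 5 groups, and Ugt2a1 and Ugt2b10 lie right of 0; the wide leftward points of Ugt2b were not called.

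The genes whose changes over the 5 dosed groups were closest to those of the 3 strongest risers were found among 10190 genes by the mean absolute difference in log2 change. For Sult2a2 these were the glutathione peroxidase Gpx2 (1.28), Sult2a6 (1.81) and the glutathione S-transferase Gsta3 (1.91). For Sult2a6 they were the aldehyde dehydrogenase Aldh1a1 (0.51), the gamma-glutamyl transferase Ggt1 (0.55) and Gpx2 (0.60). For Ugt2b1 they were the aldo-keto reductase Akr7a3 (0.47), the acyl-CoA synthetase Acsm2 (0.56) and the iron-binding protein Pir (0.56). The distances to Sult2a2 rest on low control signals and depend on the value added before the log. These distances are descriptions over 5 group means that share control animals within each study.

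Set in order of the mean signal over all 7 groups, the members fell into different sequences. Ugt2b1 was lowest in both control groups, which overlapped, then DAM 800, DAM 2000 and, apart from these, the 3 PBO groups, which overlapped one another. Sult2a6 ran from PBO controls through DAM controls and the PBO groups to DAM 800 and DAM 2000 mg/kg, with overlap between PBO 500 and 1000, PBO 1000 and 1500, and PBO 1500 and DAM 800 mg/kg. For Papss2 on its brighter probe set every neighbouring pair was separate, from PBO 1500 mg/kg (3300 ± 114, SD, n = 3) up to DAM controls (8375 ± 492). Its dimmer probe set gave another order, from DAM 2000 mg/kg (1573 ± 196) up to PBO controls (3747 ± 224), with overlap between several neighbouring pairs. For Sult1e1 every neighbouring pair overlapped, from 29369 ± 3007 at PBO 1500 mg/kg to 39387 ± 997 at DAM 2000 mg/kg. Levels of different probe sets are not compared here, since probe sets differ in how strongly they bind.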

How the data were processed

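Liver RNA of 21 rats was hybridised to 1 array per animal. The authors deposited linear intensity values. The submitters' processing notes name MAS5, whose version is not stated in the labels used. The trimmed mean was 500.2 to 500.3 on every array. Per the labels, PBO livers were kept in RNAlater and DAM livers in liquid nitrogen. The 8 members, the lists and the tests were chosen with earlier results of these data known. Values were transformed as log2(signal + 16), and probe sets above the 40th percentile of mean value were kept (18625). Each study was fitted with all its arrays with limma 3.58.1 in R 4.3.3 (lmFit, then eBayes with trend), and the difference over both studies together. A gene with several probe sets counts by the brightest. Named pathway genes are the 4 with the smallest adjusted p past the threshold in each comparison; likeness was computed for members changing by at least 2 log2 units, against all other tested genes. Other pseudocounts, filters, scalings, blocks and single arrays left out were tried, and PBO 1500 mg/kg replicate 3 was left out of further fits after the data were seen. The fits were tested on simulated data. Promoters were searched with Python 3.11.15. With 3 arrays per group the number of arrays limits the precision. Replicate numbers did not pair the animals: same-numbered arrays correlated at -0.072 to 0.034 (PBO) and -0.062 to 0.104 (DAM).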

Additional observations from a re-analysis of the deposited data

Results flagged for a closer look

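The effect of PBO 1500 mg/kg minus that of DAM 2000 mg/kg differed from 0 by the limma test of the difference for 2 of the probe sets. It was 1.12 for Ugt2b1 (adjusted p = 0.0323), which rose more with PBO, and the call held under 12 of 20 alternatives (adjusted p up to 0.0837). It was -0.48 for Papss2 on its brighter probe set (adjusted p = 0.0257), which fell more with PBO, and the call held under 11 of 20 alternatives (adjusted p up to 0.102). The dimmer Papss2 probe set gave -0.21 (adjusted p = 0.547).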

How the results depend on the processing

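The alternatives were followed for the probe sets of the listed genes and for the named pathway genes only. Of these values 1825 kept direction and call, among them changes that were never called. The call was lost by 110 and gained by 14, and 21 changed sign, each of the latter a change that was not called. The count of called genes moved at PBO 500 mg/kg to 4 with only the arrays compared and, chosen after seeing the data, to 4 without PBO 1500 mg/kg replicate 3 (Papss2 and Ugdh passed), and stayed at 2 when any array compared was left out. At DAM 2000 against 800 mg/kg it was 2 with quantile normalization, with the replicate block and with only the arrays compared. For the difference between compounds it was 1 with median scaling, 0 without the intensity trend (adjusted p = 0.0703 for Papss2 and 0.0656 for Ugt2b1), and 0 to 3 with single arrays left out.

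Changes that were not called turned sign as follows. With quantile normalization Sult1e1 gave -0.07 at PBO 500, 0.019 from PBO 1000 to 1500 and -0.022 at DAM 2000 mg/kg, Ugt2b1 gave 0.004 from PBO 1000 to 1500, and Sult1b1 and Ugdh gave 0.088 and 0.083 from PBO 500 to 1000 mg/kg. With median scaling Sult1e1 gave 0.043 at PBO 1000 and 0.002 at DAM 800 mg/kg, and Ugdh 0.023 from PBO 500 to 1000 mg/kg. With single arrays left out the step from PBO 500 to 1000 mg/kg ranged from -0.032 to 0.088 for Ugt2b1 and -0.109 to 0.082 for Ugdh. That from PBO 1000 to 1500 mg/kg ranged from -0.077 to 0.718 for Sult2a6 and -0.022 to 0.169 for Ugdh, that of Sult1a1 from DAM 800 to 2000 mg/kg from -0.084 to 0.006, and the difference between compounds for Sult2a6 from -0.413 to 0.311. The cause was not tested.

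The calls of Sult1b1 at PBO 1500 mg/kg, Ugdh at PBO 1000 mg/kg and Sult1a1 at DAM 2000 mg/kg were also lost without the filter (adjusted p = 0.063, 0.0843 and 0.0929) and without the intensity trend (0.0579, 0.13 and 0.132). The Ugt2b trend was lost without the filter (0.0501) and without the intensity trend (0.0598), and the Sult1c2 difference without the intensity trend (0.0638) and with the replicate block (0.0586). With the replicate block the trend of Sult1b1 (0.0524) and the calls of Ugdh at PBO 1000 mg/kg (0.0575), Sult1a1 at DAM 2000 mg/kg (0.073) and the Papss2 difference (0.0503) were lost, the Sult1a1 difference (0.0364) and the step of Sult2a6 from DAM 800 to 2000 mg/kg (0.0499) passed, and no other call of the 8 genes changed. Median scaling raised the share of higher calls among all calls from 46.6% to 63% at PBO 1500 mg/kg and from 50.4% to 73.9% at DAM 2000 mg/kg, and moved the median change of all probe sets from -0.082 to 0.038 and from -0.039 to 0.064. The 3 arrays per group limit what can be called.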
